A study of Homo sapiens with 41 samples.

Results

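Endothelial cells kept beneath a layered culture of the lung alveolus were compared after 24 h with gold nanoparticles shaped as rods and titled 1000 and with rods titled 500. The comparison holds 6 of the 41 libraries of the series, chosen by their sample titles: 3 basolateral libraries of rods 1000 and 3 of rods 500, numbered 1 to 3 in each group. The labels do not give the unit of 1000 and 500. Basolateral control libraries without particles (3), which are in neither group, are given beside the main values as a level to read them against. All 9 libraries are total RNA of the submerged basolateral compartment, whose cell line the labels call EA.hy296. Above it, at the air-liquid interface, the apical compartment held A549 cells, which stem from a lung adenocarcinoma and resemble alveolar epithelium, and differentiated THP1 cells, which stem from a monocytic leukaemia. The study asked how particle shape and this number bear on gene expression in each compartment. The replicates share 1 cell line, so p-values reflect only how far these cultures varied.

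Vascular endothelium answers inflammatory signals through the transcription factor NF-kB, which drives genes of cytokines, of chemokines that attract neutrophils, and of the prostaglandin enzyme PTGS2. Interferons act through STAT factors on a separate set of antiviral genes, and particles that enter cells by endocytosis can add oxidative and metal stress. The widely used endothelial line of similar name is a fusion of umbilical vein endothelial cells with a derivative of A549, so some epithelial transcripts may be its own.

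The 6 libraries held 6535001 to 10538069 counts, with reads in 16887 to 18723 genes, and the deepest was rods 500 replicate 1. At these depths 3 counts corresponded to 0.285 to 0.459 CPM, the read count scaled to 1000000 per library. The labelled cell type was checked against 20 endothelial markers, of which 19 were in the table and 17 passed the filter on low counts. Their summed level was 3159, 4168 and 3462 CPM in rods 1000 replicates 1, 2 and 3, against 2871, 3754 and 3787 CPM in rods 500 and 3323, 3751 and 4098 CPM in control. The endothelial cadherin CDH5 stood at 757, 976 and 949 CPM in rods 1000 and at 530, 885 and 1166 CPM in rods 500, while apical control libraries averaged 4.35 CPM. The groups overlap for both. Of the same list EMCN had no read in 5 of the 6 libraries, and CLDN5 had none in rods 1000 replicate 3 and at most 1.53 CPM in the others.

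No gene passed the test between rods 1000 and rods 500. With edgeR's quasi-likelihood test and group as the only term, 0 of 13244 genes had a Benjamini-Hochberg adjusted p under 0.05, which is 0% of those tested in either direction. At an unadjusted p under 0.05 there were 71 genes higher in rods 1000 (0.536% of those tested) and 60 lower (0.453%). Libraries with the same replicate number deviated from their group means together, so the number was also fitted as a block, a term for differences between replicate numbers. That fit called 0 genes too, with 110 higher (0.831%) and 50 lower (0.378%) at an unadjusted p under 0.05. The median log2 fold change over all genes tested was -0.03 without the block and -0.01 with it, and the median standard error was 0.214 and 0.2. DESeq2 called 1 gene without the block (0.00755%) and 6 with it (0.0453%), all higher in rods 1000: the cytokine genes IL1B and IL23A, the chemokine gene CXCL1, PTGS2, the metal transporter gene SLC39A8 and the antisense transcript RP11-386G11.10. The calls of 1 tool that the other does not make are given here as values, and all fold changes below are rods 1000 over rods 500 from edgeR unless named otherwise.

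Of the 6 genes that DESeq2 called with the block, 4 encode inflammatory mediators. IL1B, which encodes interleukin-1 beta, a fever-inducing cytokine, had 32.7, 22.3 and 47.1 CPM in rods 1000 replicates 1, 2 and 3, against 7.97, 6.53 and 15.7 CPM in rods 500 and 12.2, 14.5 and 4.69 CPM in control. All rods 1000 libraries were above all rods 500 and control libraries. Its log2 fold change was 1.72 ± 0.44 (SE; unadjusted p 0.00602 in edgeR), and 1.76 ± 0.19 with the block, where its unadjusted p of 1.26e-05 was the smallest of all genes and its adjusted p was 0.167. In DESeq2 with the block the adjusted p was 4.32e-05. The gene lies at chr2:112829751-112836903 on the minus strand (GRCh38).

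PTGS2 encodes the inducible cyclooxygenase that makes prostaglandin H, the precursor of prostacyclin and prostaglandin E. It had 361, 247 and 407 CPM in rods 1000, against 247, 102 and 146 CPM in rods 500 and 199, 200 and 45.5 CPM in control. The lowest rods 1000 library and the highest rods 500 library stood at almost the same level, and the difference within each replicate number was 0.57, 1.21 and 1.42 on the log2 scale. The fold change was 1.02 ± 0.35 on the log2 scale (unadjusted p 0.0229), and 1.07 ± 0.19 with the block (unadjusted p 0.000453; adjusted p 0.999 in edgeR, 0.000204 in DESeq2).

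IL23A encodes the p19 chain of interleukin-23, a cytokine of activated myeloid cells. It had 14.3, 15.2 and 45.0 CPM in rods 1000, against 4.27, 5.24 and 2.97 CPM in rods 500 and 5.69, 9.91 and 3.28 CPM in control. The groups did not overlap, and rods 1000 replicate 3 stood well above its group. The log2 fold change was 2.56 ± 0.53, and DESeq2 without the block called it with an adjusted p of 0.0024. SLC39A8, a plasma membrane importer of zinc and manganese that NF-kB is known to induce, had 82.2, 58.0 and 82.9 CPM in rods 1000, against 44.8, 25.2 and 15.5 CPM in rods 500 and 39.6, 50.1 and 11.6 CPM in control, a log2 fold change of 1.37 ± 0.36.

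**Figure D1:**
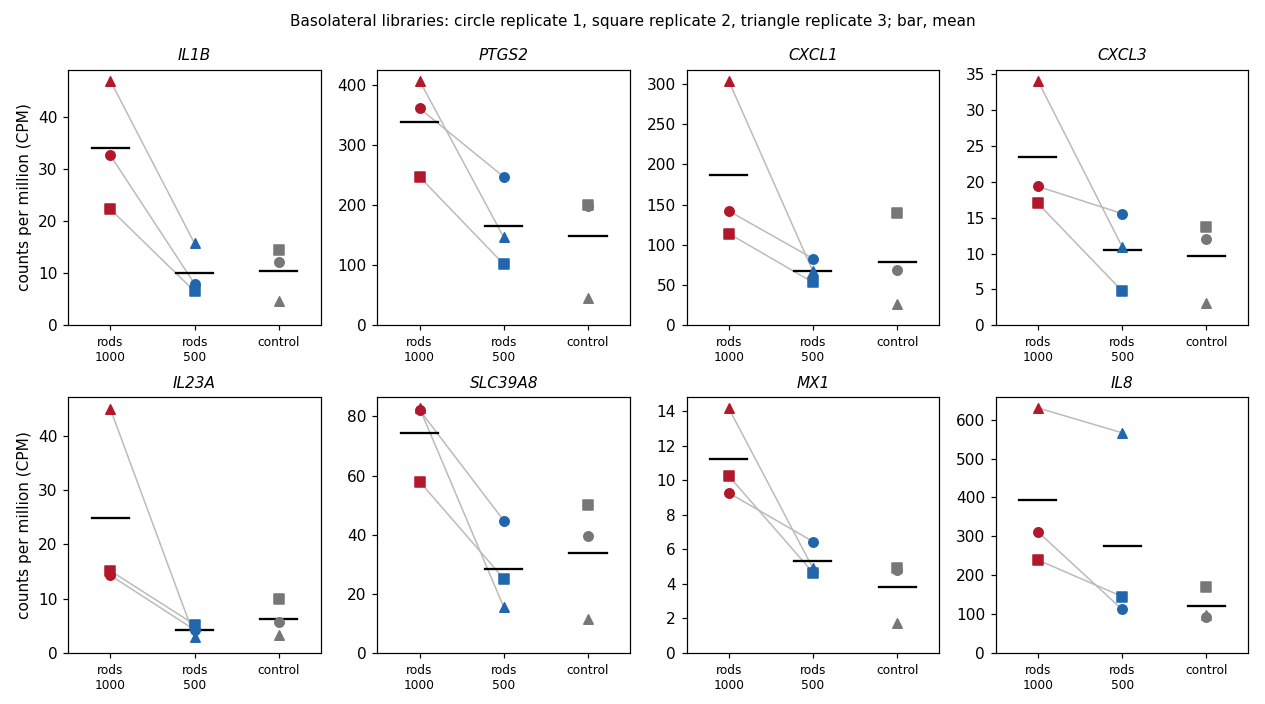
CPM (vertical axes, linear, from 0) of 8 genes in each basolateral library of rods 1000, rods 500 and control (horizontal axes), with grey lines joining rods libraries of the same replicate number and bars at group means. IL1B, CXCL1, CXCL3, IL23A, SLC39A8 and MX1 do not overlap between rods 1000 and rods 500, PTGS2 nearly touches, and IL8 overlaps.

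The neutrophil-attracting chemokines differed among themselves. CXCL1 had 142, 114 and 304 CPM in rods 1000, against 82.9, 53.3 and 66.9 CPM in rods 500 and 68.8, 140 and 26.8 CPM in control, a log2 fold change of 1.44 ± 0.42 (1.31 ± 0.27 with the block). CXCL3, at a lower level, had 19.35, 16.99 and 34.1 CPM in rods 1000, against 15.6, 4.78 and 10.95 CPM in rods 500, a log2 fold change of 1.15 ± 0.46. For both genes the groups did not overlap. CXCL2 had 64.9, 60.0 and 94.9 CPM in rods 1000, against 55.6, 36.7 and 104 CPM in rods 500, and the groups overlapped. CXCL5 had 514, 323 and 807 CPM in rods 1000, against 450, 140 and 54.2 CPM in rods 500, so that its log2 fold change of 1.36 ± 0.84 was less than 2 times its error. IL8 (CXCL8), the chemokine most used as a readout of endothelial activation, had 312, 239 and 630 CPM in rods 1000, against 112, 145 and 566 CPM in rods 500. Its log2 fold change was 0.46 ± 0.81, and -0.05 without rods 1000 replicate 3.

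CXCL1, CXCL2 and CXCL3 arose by duplication and lie close together, CXCL1 at chr4:73869393-73871242, CXCL3 at chr4:74036589-74038807 and CXCL2 at chr4:74097035-74099293. Their promoters are shown because these neighbours share sequence and a kappaB match, the element that NF-kB binds, while their values differ. Each stretch of 130 bases ends 9 or 10 bases before the gene's start in RefSeq (GRCh38.p14), is written along the gene's own strand, and has in capitals the matches to GGGA and TTCC with any 2 bases between them, on either strand. The capitals hold 2 overlapping matches, 1 on each strand, which start 1 base apart.
CXCL1 (chr4:73869254-73869383, plus strand): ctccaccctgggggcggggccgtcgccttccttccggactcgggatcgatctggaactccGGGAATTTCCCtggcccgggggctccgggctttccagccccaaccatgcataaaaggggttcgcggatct
CXCL2 (chr4:74099204-74099333, minus strand): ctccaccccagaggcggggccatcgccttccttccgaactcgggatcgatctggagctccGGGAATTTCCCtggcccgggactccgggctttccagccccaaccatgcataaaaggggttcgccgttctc
CXCL3 (chr4:74038699-74038828, minus strand): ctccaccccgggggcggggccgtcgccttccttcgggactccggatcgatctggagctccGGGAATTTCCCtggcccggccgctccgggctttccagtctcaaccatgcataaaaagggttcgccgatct
The CXCL1 and CXCL3 stretches are identical at 120 of 130 bases, 92.3%. Reads of genes this alike can be shared between them in counting, so the split between CXCL1, CXCL2 and CXCL3 is uncertain where it rests on their common parts. Only the 250 bases before the start were searched. The motif was found there in 492 of 35116 RefSeq promoters (1.4%) and in 9 of the 20 genes of the NF-kB list matched. It was not found in that window of IL1B, PTGS2, IL23A, SLC39A8 and CXCL8. Sites that depart from this pattern were not searched, so the absence of a match does not show that NF-kB has no site there.

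The NF-kB list as a whole holds 28 cytokine and feedback genes, of which 25 passed the filter. Without the block 16 were higher and 9 lower in rods 1000, with a median log2 fold change of 0.11, beside -0.03 over all genes and 43.6% of all genes higher and 56.4% lower. With the block 21 were higher and 4 lower (47.5% and 52.5% of all genes), and the median was 0.32. Of the 25, 5 were higher at an unadjusted p under 0.05 in edgeR, against 0.831% of all genes. Leaving out 1 library moved the median without the block between -0.07, without rods 1000 replicate 3, and 0.79, without rods 500 replicate 3, and without rods 500 replicate 1 it was -0.04, with 11 of 25 higher. The median difference was 0.48, 0.29 and -0.19 in replicates 1, 2 and 3, so the direction of the list as a whole did not hold. Of the 25 genes, 6 were higher in all 3 replicate numbers and 0 were lower in all 3, against 8.4% and 10.2% of all genes. The differences of the others were not of 1 sign, so a fold change near 0 does not show a level gene. NFKBIA, the inhibitor that NF-kB itself induces, had 420, 532 and 668 CPM in rods 1000, against 307, 544 and 886 CPM in rods 500. TRAF1, an adaptor of the TNF receptors, had 28.2, 37.5 and 53.6 CPM in rods 1000, against 11.96, 35.3 and 148 CPM in rods 500. For both feedback genes the groups overlapped and the same-numbered differences were not all of 1 sign. The adhesion molecules that capture leukocytes lay near 0, with 11 genes tested, 5 higher and 6 lower, and a median of -0.05.

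**Figure D2:**
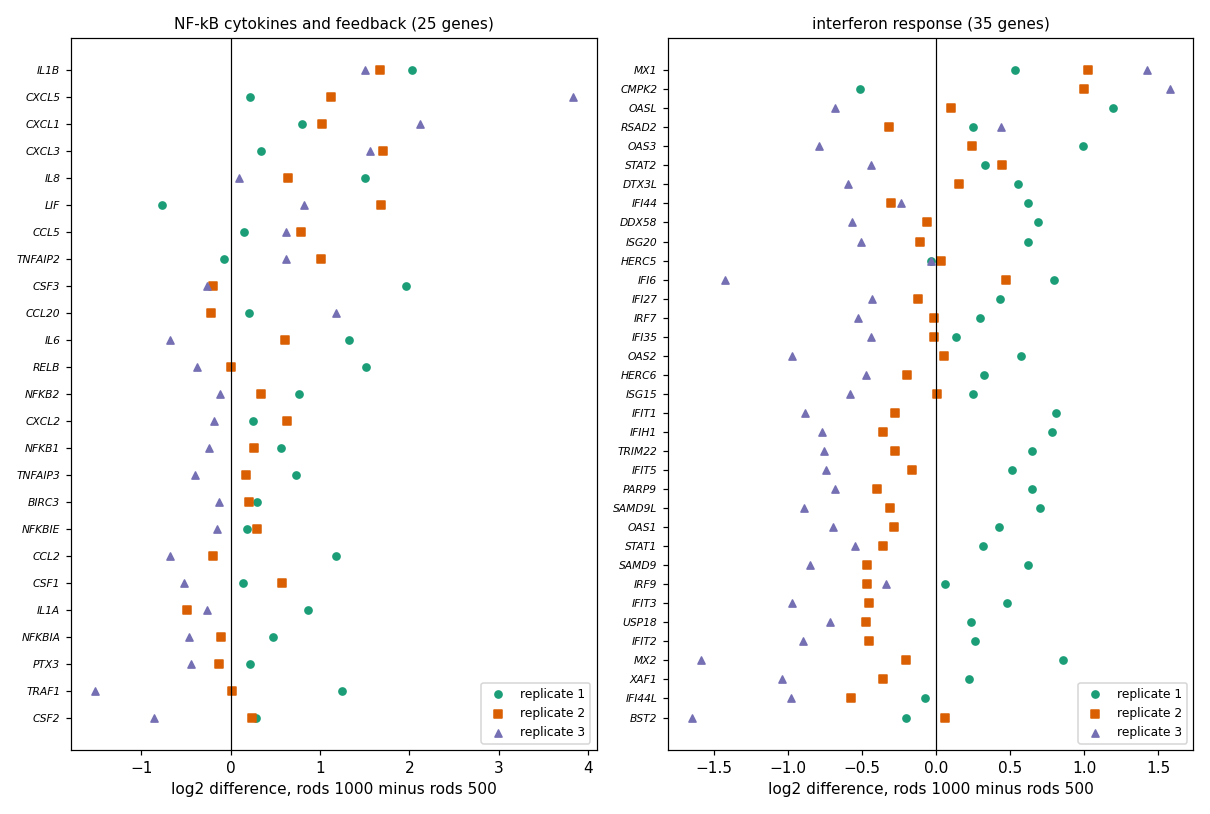
Log2 differences of CPM between rods 1000 and rods 500 libraries of the same replicate number (horizontal axes) for each gene of the NF-kB list and the interferon list that was tested (rows, ordered by the fold change with the block). IL1B, CXCL1 and CXCL3 are right of 0 in all 3 replicate numbers, and most interferon genes lie right of 0 in replicate 1 and left of it in replicate 3.

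Interferon-induced genes had differences of opposite sign between replicate numbers. All 35 genes of the list passed the filter, 5 were higher and 30 lower in rods 1000, and the median log2 fold change was -0.27 (-0.12 with the block). The median difference was 0.48 in replicate 1, -0.20 in replicate 2 and -0.68 in replicate 3, a spread larger than the median itself. IFI44L, an antiviral gene, had 86.1, 114 and 149 CPM in rods 1000, against 92.4, 162 and 282 CPM in rods 500 and 117, 77.7 and 149 CPM in control. It was lower in all 3 replicate numbers with overlapping groups, at -0.67 ± 0.46 on the log2 scale, and at -0.55 ± 0.19 with the block (unadjusted p 0.0192). IFIT3, which binds viral RNA complexes, had 88.1, 84.6 and 130 CPM in rods 1000, against 64.2, 110 and 245 CPM in rods 500. In both genes rods 500 replicate 3 was the highest of the 6 libraries. The RefSeq promoter of IFI44L is shown because it holds 2 matches to the interferon-stimulated element (GAAA, any 2 bases, GAAA, on either strand), set in capitals.
IFI44L (chr1:78620269-78620398, plus strand, GRCh38.p14): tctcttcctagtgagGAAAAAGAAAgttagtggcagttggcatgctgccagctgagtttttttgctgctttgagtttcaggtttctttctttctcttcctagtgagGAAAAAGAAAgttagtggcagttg
In the 250 bases before the start, this motif was in 1061 of 35116 promoters (3.02%) and in 14 of the 26 list genes matched. It was not found in that window of MX1, the 1 of 35 interferon genes whose groups did not overlap. Over all genes tested 2.84% were higher without overlap, so 1 of 35 is near that share. MX1, a GTPase that blocks influenza virus, had 9.27, 10.3 and 14.2 CPM in rods 1000, against 6.45, 4.66 and 4.90 CPM in rods 500, a log2 fold change of 1.04 ± 0.28 (unadjusted p 0.00487). Unlike IFI44L, which averaged 5.03 CPM in apical control libraries, MX1 was higher there, at 48.5 CPM.

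Genes of the endothelial programme were close to level. Of the 17 endothelial identity genes tested, 12 were higher and 5 lower in rods 1000, with a median log2 fold change of 0.03 (0.08 with the block). MMRN1, which encodes the platelet and endothelial protein multimerin, was the 1 of these 17 genes without overlap. Over all genes tested 2.1% were lower without overlap. MMRN1 had 109, 115 and 92.0 CPM in rods 1000 against 118, 129 and 142 CPM in rods 500, a log2 fold change of -0.35 ± 0.14 (unadjusted p 0.0413). VWF, the von Willebrand factor stored in endothelial granules, had 147, 374 and 189 CPM in rods 1000, against 145, 234 and 232 CPM in rods 500. Among 19 angiogenic ligands and receptors 8 were higher and 11 lower, with a median of -0.02. The growth factor gene VEGFB had 46.8, 57.2 and 51.1 CPM in rods 1000, against 70.7, 81.9 and 51.2 CPM in rods 500, a log2 fold change of -0.43 ± 0.17. The receptor gene KDR had 183, 279 and 245 CPM in rods 1000, against 183, 238 and 267 CPM in rods 500. Junction genes (15 tested, 10 higher, median 0.01), integrins (13 tested, 9 higher, median 0.05) and genes of endocytosis and caveolae (24 tested, 11 higher, median -0.03) also lay near the median of all genes.

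Matrix and protease genes gave a few single differences within level lists. MMP9, a gelatinase, had 8.31, 5.66 and 7.46 CPM in rods 1000, against 4.27, 2.45 and 2.51 CPM in rods 500, without overlap and with a log2 fold change of 1.19 ± 0.37. SERPINE2, a secreted thrombin and plasminogen activator inhibitor, had 37.6, 36.3 and 41.1 CPM in rods 1000, against 28.6, 21.1 and 26.8 CPM in rods 500, at 0.55 ± 0.17. TGFBI, a matrix protein induced by TGF-beta, had 136, 139 and 137 CPM in rods 1000, against 124, 112 and 92.0 CPM in rods 500, at 0.30 ± 0.13. Apical control libraries held more of all 3 than basolateral ones, with a log2 ratio of 3.20 for MMP9, 2.37 for SERPINE2 and 2.02 for TGFBI.

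Stress programmes commonly read out after particle exposure showed no call and medians near 0 with all 6 libraries. Heat shock chaperones had 18 genes tested, 4 higher and 14 lower, with a median log2 fold change of -0.04. HSPA1A, the inducible chaperone HSP70, had 150, 222 and 194 CPM in rods 1000, against 133, 180 and 165 CPM in rods 500, at 0.20 ± 0.19. The unfolded protein and integrated stress response had 27 genes tested and a median of -0.07. Targets of NRF2, the factor that answers oxidants, had 24 genes tested, 12 higher and 12 lower, and a median of 0.01. That median rested on rods 500 replicate 1. With the block 19 were higher and the median was 0.18. Without that library 21 were higher and the median was 0.48. Then 4 of the 24, including GPX2, ABCC2 and ABCC3, were called higher, against 0.794% of all genes. The median differences of the list were -0.57, 0.28 and 0.59 in replicates 1, 2 and 3. HMOX1, the heme oxygenase of that list, had 21.8, 28.6 and 24.5 CPM in rods 1000, against 14.4, 24.6 and 24.5 CPM in rods 500. Of metallothionein and zinc transport genes 9 were tested with a median of 0.06, and MT1X, a metal-binding protein, had 2.73, 1.84 and 1.598 CPM in rods 1000, against 1.61, 1.17 and 0.684 CPM in rods 500. Targets of p53 (22 tested, median -0.02) and proliferation genes (34 tested, median 0.03) were likewise near 0 with all 6 libraries. So were cholesterol synthesis (20 tested, median 0.08) and hypoxia and glycolysis genes (26 tested, median 0.00). Without rods 500 replicate 1 these medians were, in the same order, -0.22, 0.06, 0.25 and 0.04. Then 1 of 22, 25 of 34, 16 of 20 and 16 of 26 genes were higher, against 48% of all genes. In that fit 1 of the 20 cholesterol genes was called higher, against 0.794% of all genes. With all 6 libraries, ribosomal protein genes (33 tested) had a median of -0.08 and the 13 mitochondrially encoded genes 0.19. The lists given nowhere else in the text had medians between -0.18 for the GIMAP GTPases (6 tested) and 0.12 for metalloproteinases and their inhibitors (14 tested). A median near 0 with 3 libraries a group does not show that the programmes were equal.

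**Figure D3:**
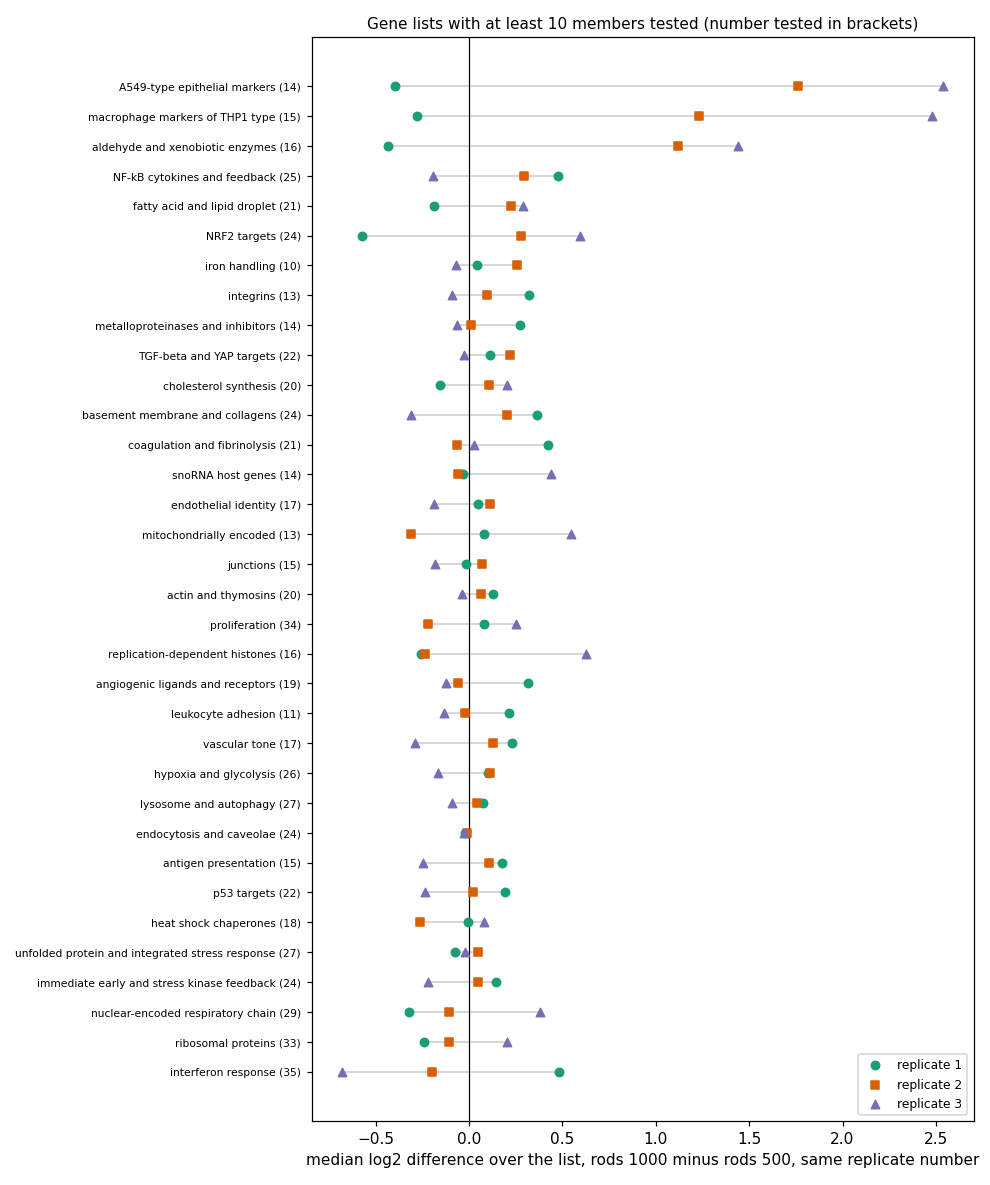
Median log2 difference between rods 1000 and rods 500 libraries of the same replicate number (horizontal axis) for each gene list with at least 10 members tested (rows, ordered by the median with the block), with 1 symbol per replicate number. The A549-type epithelial list is at -0.40, 1.76 and 2.54 and the macrophage list at -0.28, 1.23 and 2.48 in replicates 1, 2 and 3, while most other lists stay within 0.5 of 0.

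Among the genes lower in rods 1000, those named here with a gene symbol differed by less than 1 on the log2 scale. MALSU1, a factor of mitochondrial ribosome assembly, had 5.997, 9.33 and 9.37 CPM in rods 1000, against 13.95, 17.01 and 13.5 CPM in rods 500 and 17.1, 10.4 and 11.14 CPM in control, a log2 fold change of -0.88 ± 0.24 (unadjusted p 0.00603). The zinc finger gene ZNF25 stood at -0.60 ± 0.19, the endosomal gene PPP1R21 at -0.43 ± 0.15 and TRIM34, a member of the TRIM family of ubiquitin ligases, at -0.47 ± 0.17, each without overlap between groups. FILIP1L, which encodes a filamin-interacting protein, was at -0.59 ± 0.26 with overlap. RP11-286N22.8, listed as protein coding without a gene name, was at -0.87 ± 0.25. Without overlap there were 376 genes higher in rods 1000 (2.84% of those tested) and 278 lower (2.1%), and all 3 same-numbered differences were positive for 1113 genes (8.4%) and negative for 1350 (10.2%).

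Several top-ranked loci are uncertain because they overlap others. MYZAP, a junction protein gene whose locus overlaps a neighbouring readthrough gene, had 6.95, 13.3 and 7.56 CPM in rods 1000, against 2.37, 1.17 and 2.97 CPM in rods 500, at 2.03 ± 0.44 on the log2 scale, but control libraries had 7.77, 3.27 and 16.4 CPM. NEDD8-MDP1, a readthrough locus, was at 1.28 ± 0.30. The antisense transcript RP11-386G11.10 had 45.3, 38.1 and 2.98 CPM in rods 1000, against 1.23, 3.85 and 0 CPM in rods 500 and 0.219, 2.12 and 3.49 CPM in control, with overlap. The strand setting of the counting is not given in the sources used here, so its reads cannot be told from those of the gene it overlaps. RP11-135L13.4, also antisense, had 1.77, 0 and 0 CPM in rods 1000, against 6.17, 5.94 and 3.99 CPM in rods 500, without overlap, and had the largest difference of the lower genes named, at -3.20 ± 1.25 on the log2 scale (unadjusted p 0.0372).

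Transcripts typical of A549 and THP1 cells, and of mast cells, varied widely between these libraries. The 20 A549-type epithelial markers summed to 1144, 1065 and 1086 CPM in rods 1000 replicates 1, 2 and 3, against 1773, 730 and 551 CPM in rods 500 and 1339, 972 and 627 CPM in control. Rods 500 replicate 1 was the highest and rods 500 replicate 3 the lowest of the 20 basolateral libraries of the series. The 18 macrophage markers summed to 331, 226 and 218 CPM in rods 1000, against 416, 137 and 91 CPM in rods 500 and 292, 198 and 94 CPM in control. The labels of the samples name no mast cells in either compartment, and the title of the series speaks of a culture of 4 cell types. The 11 mast cell markers summed to 211, 89.7 and 25 CPM in rods 1000, against 312, 40.9 and 12.8 CPM in rods 500 and 209, 65 and 19 CPM in control. Rods 1000 was below rods 500 in replicate 1 and above it in replicates 2 and 3 for each of these lists. At 0 in all 6 libraries were the epithelial markers ESRP1, SFTA2 and NKX2-1 and the macrophage receptor gene MARCO. In apical control libraries they averaged 0.127, 0, 0 and 0.397 CPM, so their absence here says nothing of apical transcripts. Of 12 fibroblast and mural markers 3 passed the filter, with a median log2 fold change of -0.14. In bulk RNA more cells of a type and more RNA per cell cannot be told apart.

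**Figure D4:**
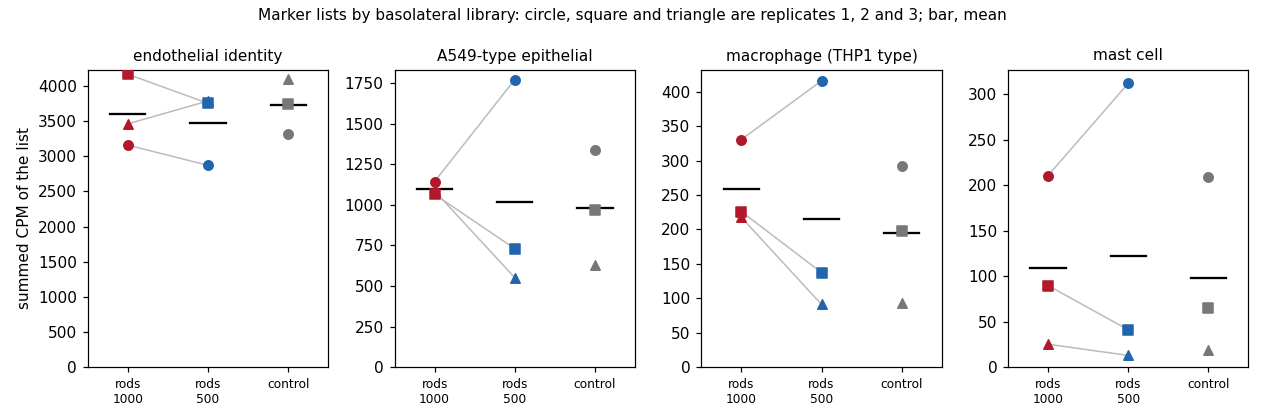
Summed CPM (vertical axes, linear, from 0) of 4 marker lists in each basolateral library of rods 1000, rods 500 and control (horizontal axes), with grey lines joining rods libraries of the same replicate number and bars at group means. The epithelial sum spans 1065 to 1144 CPM in rods 1000 and 551 to 1773 CPM in rods 500, and endothelial sums stay between 2871 and 4168 CPM in the 9 libraries.

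Single markers differed in how far they varied. Of the 14 epithelial markers tested, none was at an unadjusted p under 0.05, 11 were higher without the block and all 14 with it, and the median log2 fold change was 0.38 and 1.25. ELF3, an epithelial transcription factor gene, had 18.1, 15.6 and 17.8 CPM in rods 1000, against 26.1, 2.33 and 2.17 CPM in rods 500. The mucin gene MUC5AC had 81.2, 50.0 and 27.8 CPM in rods 1000, against 77.5, 9.21 and 2.85 CPM in rods 500. KRT7, an intermediate filament gene, had 221, 304 and 323 CPM in rods 1000, against 250, 242 and 258 CPM in rods 500, a far smaller spread. Of the 15 macrophage markers tested, PTPRC, the leukocyte phosphatase CD45, had 36.4, 20.5 and 29.9 CPM in rods 1000, against 24.4, 7.69 and 2.85 CPM in rods 500. LYZ, lysozyme, had 90.5, 66.6 and 40.1 CPM in rods 1000, against 130, 26.9 and 3.88 CPM in rods 500. The mast cell receptor gene KIT had 113, 39.6 and 8.10 CPM in rods 1000, against 146, 12.1 and 0 CPM in rods 500.

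Detoxifying enzymes also varied more in rods 500 than in rods 1000. ALDH1A1, a retinal dehydrogenase abundant in A549 cells, had 1181, 726 and 782 CPM in rods 1000, against 2073, 300 and 125 CPM in rods 500. CYP1B1, a cytochrome P450 gene, had 7.36, 5.97 and 9.37 CPM in rods 1000, against 7.402, 1.52 and 1.14 CPM in rods 500. The 16 aldehyde and xenobiotic genes tested had a median log2 fold change of 0.14, 0.60 with the block and 1.79 without rods 500 replicate 1. GPX2, a glutathione peroxidase of epithelia, had 42.7, 37.2 and 39.1 CPM in rods 1000, against 151, 10.1 and 4.11 CPM in rods 500.

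To follow this without marker lists, genes were taken from the control libraries alone, with a mean of at least 20 CPM in apical control and over 8 times the level in basolateral control. These thresholds were set after the data were seen. The 490 genes that passed summed to 13380, 8712 and 10980 CPM in rods 1000, against 20270, 3396 and 2612 CPM in rods 500 and 12220, 7830 and 1665 CPM in basolateral control. Replicate 1 had the highest sum in each of the 7 basolateral groups, with 18610 and 15400 CPM in spheres 1000 and 500. Stars 1000 and 500 had 10260 and 7245 CPM in that replicate. Replicate 3 had 1927 and 2205 CPM in spheres 1000 and 500, and 5430 and 2360 CPM in stars 1000 and 500. Apical libraries of all groups held 79830 to 93270 CPM. Of the 488 that were tested, 84 were higher in rods 1000 in replicate 1, 480 in replicate 2 and 488 in replicate 3. They made up 3.68% of all genes tested and 26 of the 71 genes higher at an unadjusted p under 0.05 (36.6%).

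Among single libraries left out, only rods 500 replicate 1 changed the number of calls. Without it edgeR called 109 of 13479 genes, 107 higher in rods 1000 (0.794% of those tested) and 2 lower (0.0148%). Without any other single library edgeR called 0. The fit that called 109 genes kept rods 1000 replicate 1 and had no block. All 107 were more than 2-fold higher in apical than in basolateral control libraries, against 16.3% of all genes in that fit, with a median ratio of 3.65 on the log2 scale. In 82 of the 107, rods 500 replicate 1 was the highest of the 6 libraries, a share that was not counted over all genes. Their median log2 fold change was 2.49 without that library and 0.48 with it. The 107 genes were selected by the fit without that library, so both values follow in part from the selection. They included ELF3 at 2.87 ± 0.29 (adjusted p 0.00465), the complement genes C1S at 2.71 ± 0.29 and C3 at 2.15 ± 0.24, the protease inhibitor gene SPINT2 at 2.71 ± 0.30, the leukocyte ectoenzyme gene CD38 at 3.19 ± 0.38 and the leukocyte integrin gene ITGB2 at 2.87 ± 0.34. SLC39A8 was among them, at 1.82 ± 0.25 (adjusted p 0.00717), and so was ADAMDEC1, a metalloprotease gene of macrophages, at an adjusted p of 0.0309. The 2 genes called lower were loci without a gene name. The part of transcripts from apical cells in these 109 calls was not tested.

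**Figure D5:**
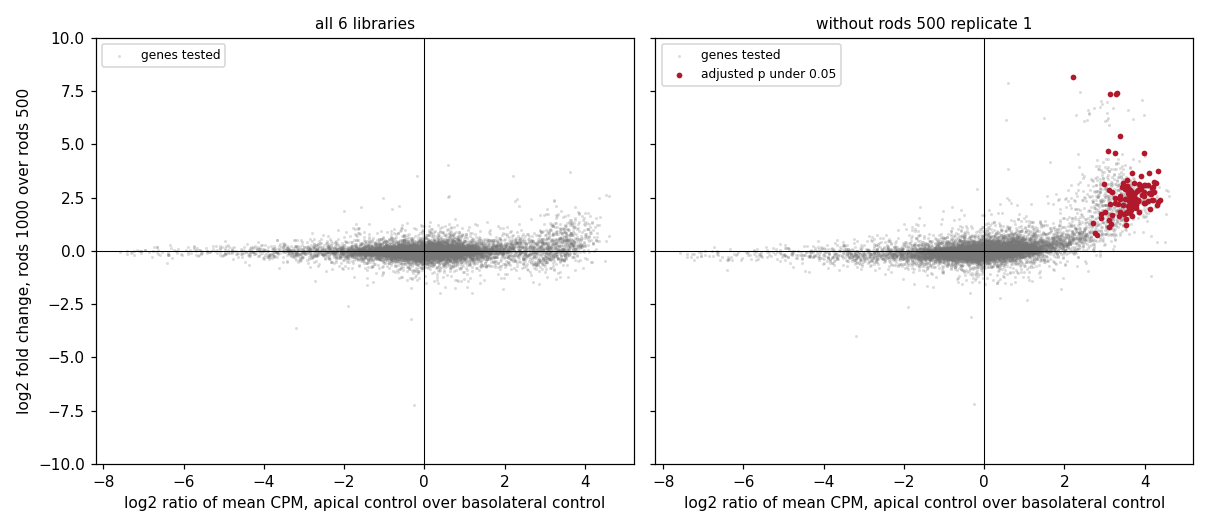
Log2 fold change of rods 1000 over rods 500 (vertical axes) against the log2 ratio of apical to basolateral control mean CPM (horizontal axes), 1 point per gene tested, with all 6 libraries (left) and without rods 500 replicate 1 (right, where 107 genes at an adjusted p under 0.05 are red). The red points lie at the right of the axis, at genes more than 2-fold higher in apical control.

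The inflammatory genes can be set beside these values directly. IL1B, PTGS2, CXCL1, IL23A and SLC39A8 were also higher in apical than in basolateral control libraries, at 157 CPM for IL1B, 2451 CPM for PTGS2, 1224 CPM for CXCL1, 165 CPM for IL23A and 498 CPM for SLC39A8 on average. The log2 differences in replicates 1, 2 and 3 were 2.03, 1.67 and 1.51 for IL1B and 1.72, 1.42 and 3.76 for IL23A. They were 0.57, 1.21 and 1.42 for PTGS2, 0.80, 1.02 and 2.12 for CXCL1 and 0.90, 1.12 and 2.34 for SLC39A8. The median over the 488 apical genes was -0.65, 1.42 and 2.57. All 5 genes were higher in rods 1000 in replicate 1, where that median was negative, as were 84 of the 488 apical genes. The 5 were picked by the DESeq2 fit with the block, which favours genes whose same-numbered differences agree. Their shared sign in replicate 1 follows in part from that choice. For PTGS2, CXCL1 and SLC39A8, as for that median, the difference was smallest in replicate 1 and largest in replicate 3. The part of apical transcripts in these 5 differences was not tested. The apical libraries of the same replicate numbers had 134, 91.0 and 345 CPM of IL1B in rods 1000, against 69.3, 309 and 323 CPM in rods 500 and 63.9, 120 and 286 CPM in control. For PTGS2 they had 2234, 1683 and 2963 CPM in rods 1000, against 1435, 2939 and 2822 CPM in rods 500. In the apical compartment the groups overlapped for both genes, and rods 1000 was the higher in replicates 1 and 3 and the lower in replicate 2. In the basolateral compartment it was the higher in all 3. The fold change of IL1B lay between 1.41 and 2.26 on the log2 scale in all alternatives run, and that of PTGS2 between 0.80 and 1.39.

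Whether these differences were particular to rods was tested against the star-shaped particles, which have the same numbers and replicates and share no library with the rods groups. The difference between 1000 and 500 differed between rods and stars for 0 of 13733 genes in edgeR (0%), with 125 genes at an unadjusted p under 0.05 (0.91%), and for 1 gene in DESeq2, the locus CLN3_1. With the block the count was 0 and 170 (1.24%). IL1B had 22.1, 5.16 and 8.42 CPM in stars 1000, against 5.96, 0.766 and 10.9 CPM in stars 500. The difference between shapes in its log2 fold change was 0.78 ± 1.11 (unadjusted p 0.501). PTGS2 had 231, 83.0 and 140 CPM in stars 1000, against 105, 33.2 and 174 CPM in stars 500, with a difference between shapes of 0.52 ± 0.84. For CXCL1 it was 0.30 ± 0.99 and for MX1 0.06 ± 0.67. These errors are large beside the differences, so the data neither separate rods from stars nor show that they act alike.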

How the data were processed

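Gene counts of total RNA libraries were compared between basolateral rods 1000 and rods 500, with groups and replicate numbers from the sample titles. Each deposited value is a read count that the authors made per gene, a whole number that was not normalized. Per the labels, libraries were made from total RNA with a stranded SMARTer kit. The submitters' processing notes name the build GRCh38.p13; aligner, counter, strand setting and annotation: not given in the sources used here. No library had a read for 29633 of the 57773 genes, and positions come from GENCODE 29, which holds 90.6% of the identifiers. Even numbers made up 68.4 to 73.4% of counts from 1 to 20 in the 6 libraries, so a fragment may often have been counted more than once.

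The test was edgeR 4.0.16 (under R 4.3.3), its robust quasi-likelihood F test with TMM scaling and filterByExpr, fitted on group alone; a call is a Benjamini-Hochberg adjusted p under 0.05. Standard errors follow from the F statistic. CPM use a library's total count. Ratios between control compartments used 0.5 CPM added to each mean. Same-numbered libraries correlated in their deviations from group means at 0.333, 0.106 and 0.232 for replicates 1, 2 and 3, each library most with its own number, which by a limit of 0.1 pairs them; the labels do not say what a number shares. Alternatives were DESeq2 1.42.0, limma-voom (limma 3.58.1), other scalings and filters, the block, each library left out, all basolateral libraries and marker covariates. The fits were tested on simulated counts.

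Members and the 40 gene lists (802 of 803 genes found, 9 by identifier, PECAM1 not) were chosen with earlier results of these data known. Genes were named by p within each direction and list and by level within marker lists; CXCL2, CXCL5, SLC39A8, IFIT3, VWF, KDR, ALDH1A1, NFKBIA, TRAF1, GPX2 and the genes called without rods 500 replicate 1 were chosen after their values were seen. Floors cover counting error only, while standard errors also include the spread between libraries.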

Additional observations from a re-analysis of the deposited data

How the results depend on the processing

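The count of 0 genes between rods 1000 and rods 500 was also found with RLE, upper quartile and no scaling, with no filter or a CPM filter, in limma-voom, with all 20 basolateral libraries, without robust dispersion, and with the epithelial or mast cell markers as a covariate. The replicate block left it at 0 (160 genes at an unadjusted p under 0.05, against 131 without the block). DESeq2 called 1 gene, and 6 with the replicate block, all higher. The block without a filter called 4, all higher (IL1B, PTGS2, CLN3_1 and RP11-290L1.3), and the macrophage marker covariate 2, both higher (IL32 and AC002550.5). Leaving out 1 library gave 0 to 109 genes, 0 to 107 higher and 0 to 2 lower. The block without replicate 1 called 175 (169 higher, 6 lower), of which 102 were among the 109 (58.3% of the 175, 93.6% of the 109). Without replicate 1 in both groups and no block it was 59 (57 higher, 2 lower), with 53 shared. The covariates other than the epithelial one, the fit without replicate 1 and the unfiltered block were chosen after seeing the data. For the difference between rods and stars the count became 1, higher in rods, in DESeq2, in DESeq2 with the block and in the unfiltered block (CLN3_1 each time) and in the block without replicate 1 (RP11-386G11.10), and stayed 0 when any 1 library was left out. Fold changes of C1S, C3, SPINT2, CD38 and ITGB2 were not followed through these alternatives. Among the other genes given with a fold change, 1 changed direction, IL8, at -0.054 without rods 1000 replicate 3. Its highest value when 1 library was left out was 1.64. Why these values change was not tested. Counts under 3 per library, 0.285 to 0.459 CPM, limit low genes such as MT1X, and 3 libraries a group limit small differences.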
